A study of Homo sapiens with 6 samples.

Results

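The TRIM genes encode a family of mostly RING-type ubiquitin ligases, and their transcripts were followed in A549 cells in which the long noncoding RNA LINC00525 had been silenced. Members were all genes with a single annotated symbol of TRIM followed by a number, and the probe set with the highest mean over the 6 arrays stood for each gene. This gave 60 of the 18132 genes measured. A549 is an established human lung adenocarcinoma line, and every array carried RNA from it, so the data describe 1 cell line. The 3 control arrays (sh_ctrl) came from cells given a scrambled control and the 3 knockdown arrays (sh_LINC00525) from cells in which LINC00525 was targeted. Sample titles mark both groups as "sh", whereas the treatment text speaks of siRNA, and for knockdown replicates 2 and 3 the genotype label gives LINC00526 and LINC00527 in place of LINC00525. Groups were therefore taken from the titles. No label says that replicates were separate cultures, so the p-values speak only for the spread among these arrays, and that spread may be technical.

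A TRIM protein is built from a tripartite motif of a RING finger, 1 or 2 B-box zinc fingers and a coiled coil, followed by a C-terminal domain that recognises the target. The RING finger recruits an E2 enzyme and transfers ubiquitin, while members that lack it act as adaptors. Many members with a SPRY domain at the C-terminus act in antiviral defence, either by binding viral capsids or by tuning the sensors and kinases of the interferon response, and a number of these are themselves induced by interferon. Members with a PHD finger and a bromodomain are chromatin cofactors.

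All values are log2 RMA signals, on which 1 unit is a doubling. The deposited array medians were 5.1 to 5.11, so a change is measured against the middle of its own array. The bacterial hybridization controls were 0.28 units higher on the knockdown arrays and the poly-A controls 0.14 higher, and the effect of scaling to either is given with the genes it touches. The 17 Tag controls, which match no human transcript, served as a guide to background, with control means of 2.27 to 4.60. LINC00525 itself averaged 3.86 ± 0.12 in the control group and 3.55 ± 0.11 after knockdown (SD, n = 3 each; log2 change -0.30 ± 0.075 SE, limma adjusted p = 0.0372, exact permutation p = 0.1, the smallest that 3 against 3 allows), inside that range. The 6 epithelial markers had control signals of 5.43 to 12.45, and of these KRT19 rose by 0.29 (limma adjusted p = 0.00409) and KRT8 fell by 0.15 (limma adjusted p = 0.0474). In the control group the 5 leukocyte, 5 fibroblast and 4 endothelial markers lay between 1.91 and 6.25. PTPRC, the pan-leukocyte CD45, was at 2.32, but the leukocyte marker CD14 was at 6.25, above the epithelial EPCAM at 5.43. Of the leukocyte, fibroblast and endothelial markers 2, 1 and 2 lay above all Tag controls. In these 3 lists 0 members were called.

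Antiviral members such as TRIM14, TRIM21 and TRIM25 rose on silencing, the chromatin cofactor TRIM28 and 6 other members fell by small amounts, and most of the family did not pass the test. Of the 60 genes, 9 rose, 7 fell and 44 did not pass (limma, adjusted p under 0.05 over all genes), so 26.7% were called against a background of 12.6% of all genes. By direction, 15.0% of members rose against 5.77% of all genes and 11.7% fell against 6.83%. The median change over the 60 members was -0.02, beside -0.013 over all genes. Rises reached 1.01 log2 units, or 2.02-fold, and 3 of them were at least 1.5-fold. The falls lay between 0.14 and 0.26 units, or 1.1-fold to 1.2-fold, and 0 reached 1.5-fold. The groups did not overlap for 26 members (43.3%, against 30.8% of all genes), 11 with the knockdown arrays higher (12.9% of all genes) and 15 with them lower (17.9% of all genes). All 16 called members were among the 26. In whole-culture RNA a change in the share of cells that express a gene cannot be told apart from a change in RNA per cell.

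**Figure D1:**
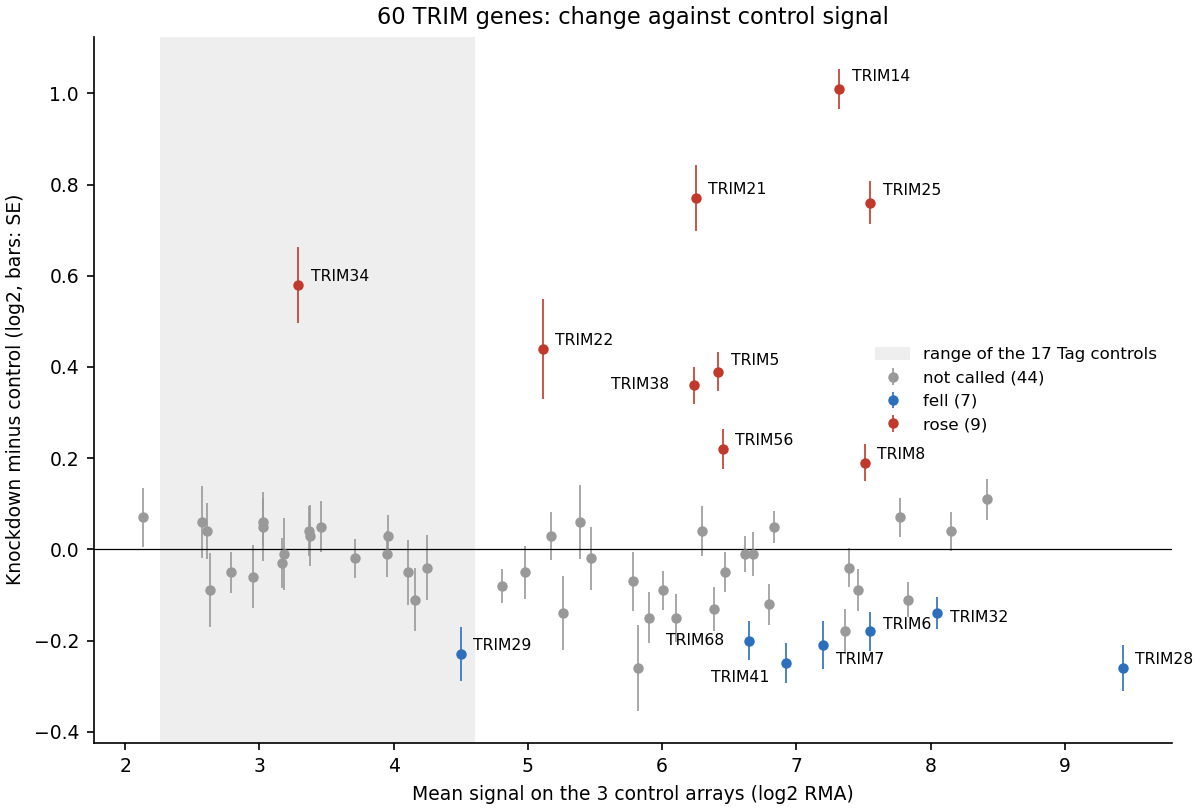
Change of each of the 60 TRIM genes (knockdown minus control, log2, with its standard error) against its mean signal on the 3 control arrays. The shaded band is the range of the 17 Tag controls (2.27 to 4.60). The 9 genes that rose reach 1.01 and 8 of them lie to the right of the band, while the 7 that fell stay within 0.26 of 0. Scaled to the hybridization controls TRIM56 and TRIM8 turn to -0.06 and -0.09.

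Control signals of 39 members lay above all Tag controls, and among these 8 rose, 6 fell and 25 did not pass. Over the whole array 11449 genes lay above that level, of which 8.02% rose and 10.2% fell. The other 21 members had signals at or below the highest Tag control, and of these 1 rose (TRIM34), 1 fell (TRIM29) and 19 did not pass. The highest mean signals over the 6 arrays were those of the probe sets for TRIM28 (9.30), TRIM44 (8.47) and TRIM37 (8.17), and the lowest those for TRIM64 (2.16), TRIM55 (2.58) and the pseudogene TRIM53AP (2.60). Probe sets differ in how well they bind, so this is not an order of RNA levels.

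The list of interferon-associated TRIM genes held most of the rises. Of its 11 members 8 rose, 1 fell (TRIM6) and 2 did not pass (TRIM26 and TRIM69), with a median change of 0.39. Of the 49 members outside the list, 1 rose (TRIM8), 6 fell and 42 did not pass, with a median of -0.05. The shares over all genes were 5.77% for rises and 6.83% for falls. Within the list, TRIM56 turned to -0.06 when scaled to the hybridization controls. TRIM5 turned to -0.04 when _s_at and _x_at probe sets, explained with the probe sets, were left out. TRIM14 was then at 0.11 without passing (limma adjusted p = 0.243), and TRIM21 and TRIM34 had no probe set left. Lists of this kind were drawn up with rises of interferon-associated genes on these arrays already known, so the split is a description.

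TRIM14, a RING-less adaptor of the mitochondrial antiviral protein MAVS, had control signals of 7.38, 7.30 and 7.27 and knockdown signals of 8.37, 8.30 and 8.32. Every knockdown array was well above every control array, and TRIM14 rose 2.02-fold (log2 1.01 ± 0.044 SE, limma adjusted p = 1.52e-05). TRIM25, the ligase that ubiquitinates the RNA sensor RIG-I and is needed by the antiviral protein ZAP, was at 7.49, 7.63 and 7.54 on control and 8.33, 8.28 and 8.34 on knockdown arrays. All 3 knockdown values were higher, and the rise was 1.70-fold (log2 0.76 ± 0.047 SE, limma adjusted p = 8.46e-05). TRIM38, a ligase known to restrain TNF, IL-1 and Toll-like receptor signalling, went from 6.28, 6.24 and 6.21 to 6.65, 6.57 and 6.59. Its rise was 1.28-fold (log2 0.36 ± 0.041 SE, limma adjusted p = 0.00178); scaling to the hybridization controls left 0.08 (adjusted p = 0.427).

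TRIM21, the cytosolic antibody receptor that directs antibody-coated virus to the proteasome, was at 6.16, 6.34 and 6.25 on control and 7.08, 6.88 and 7.10 on knockdown arrays. The lowest knockdown array lay above the highest control array, and the gene rose 1.71-fold (log2 0.77 ± 0.072 SE, limma adjusted p = 0.000663). TRIM56, an antiviral ligase that acts on DNA and RNA sensing, was at 6.43, 6.47 and 6.44 against 6.66, 6.73 and 6.60. This small rise (log2 0.22 ± 0.044 SE, limma adjusted p = 0.0194) kept its call in 1 of the 6 omissions of a single array, that of knockdown replicate 3 (adjusted p of 0.0517 to 0.0657 in the others), and scaled to the hybridization controls it turned to -0.06. TRIM8, a ligase that targets the cytokine inhibitor SOCS1, was the single riser outside the interferon list, with 7.48, 7.53 and 7.53 on control and 7.66, 7.75 and 7.69 on knockdown arrays. Its change of 0.19 ± 0.041 (SE, limma adjusted p = 0.0244) kept its call in 1 of those 6 omissions, that of knockdown replicate 1 (0.0589 to 0.0806 in the others) and turned to -0.09 when scaled to the hybridization controls.

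**Figure D2:**
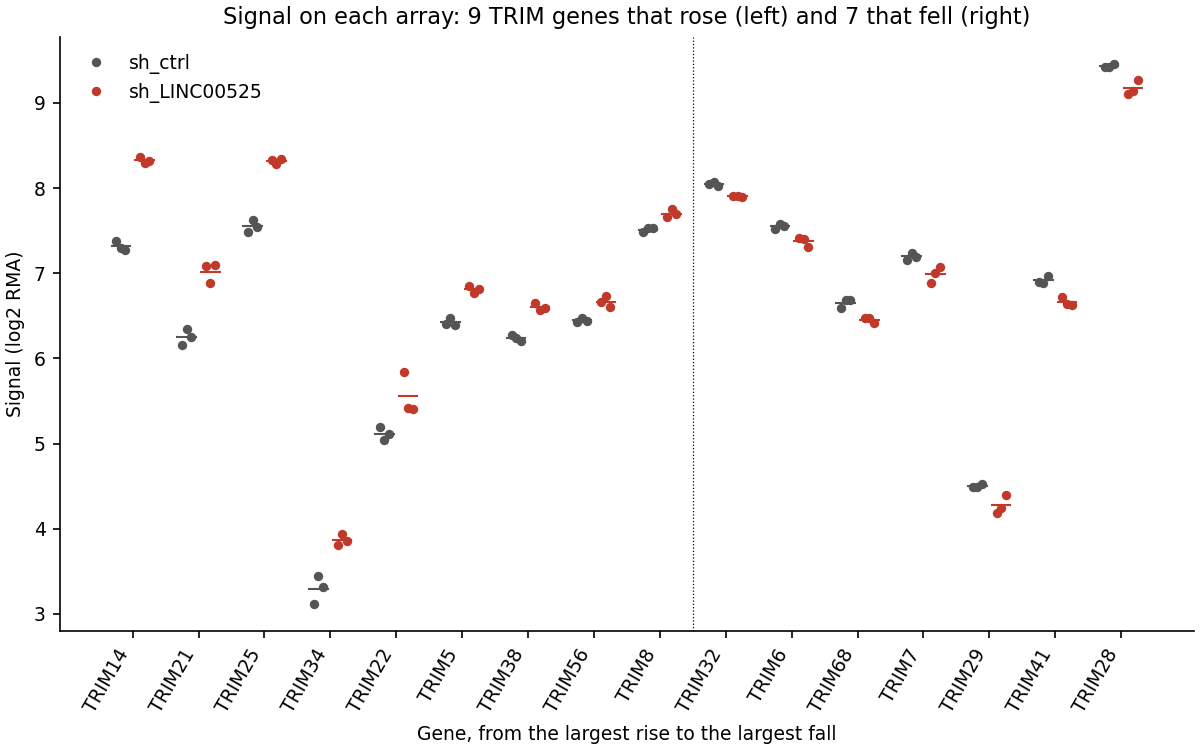
Signal (log2 RMA) of the 16 called TRIM genes on each of the 3 control (grey) and 3 knockdown (red) arrays; bars are group means, and the dotted line parts rises from falls. Groups are separate for every gene shown, widest for TRIM14 (7.32 against 8.33); TRIM56 and TRIM8 turn to -0.06 and -0.09 when scaled to the hybridization controls.

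At the TRIM5 locus 3 of 4 neighbouring members rose and 1 fell, where 5.77% of all genes rose and 6.83% fell. On chromosome 11 the genes TRIM5, TRIM6, TRIM34 and TRIM22 adjoin one another, with no protein-coding gene between them but a readthrough of TRIM6 and TRIM34. TRIM5, which blocks incoming retroviral capsids, went from 6.40, 6.48 and 6.39 to 6.85, 6.77 and 6.82, a rise of 1.31-fold (log2 0.39 ± 0.043 SE, limma adjusted p = 0.00158). The value was 0.11 after scaling to the hybridization controls (adjusted p = 0.271). TRIM34, a close paralog that also binds capsids, was at 3.11, 3.45 and 3.31 on control and 3.81, 3.94 and 3.85 on knockdown arrays. The groups did not overlap (log2 0.58 ± 0.084 SE, limma adjusted p = 0.00522), but 3 of the 17 Tag controls lay above the control mean, so its ratio can include background.

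TRIM22, an interferon-induced inhibitor of viral transcription and also a p53 target, was at 5.19, 5.04 and 5.11 on control and 5.84, 5.42 and 5.41 on knockdown arrays. Knockdown replicate 1 stood above the other two, whose values still lay above every control. At this probe set the gene rose 1.36-fold (log2 0.44 ± 0.11 SE, limma adjusted p = 0.0413), which no longer passed once any 1 control array, or knockdown replicate 2, was removed (0.0569 to 0.134). Without knockdown replicate 1 the change was 0.30. The other 5 TRIM22 probe sets rose far more, as described with the probe sets. TRIM6, which builds free ubiquitin chains that activate the kinase IKK-epsilon, went the other way, from 7.52, 7.58 and 7.56 to 7.41, 7.40 and 7.31. It fell by 0.18 ± 0.043 log2 units (SE, limma adjusted p = 0.033), which did not pass in any of the 6 omissions (0.0532 to 0.113), and its second probe set gave -0.05 (adjusted p = 0.567 over all probe sets).

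The 2 members of the interferon list that did not pass had overlapping groups. TRIM26, a ligase of the transcription factor IRF3, was at 6.59, 6.67 and 6.60 on control and 6.61, 6.58 and 6.64 on knockdown arrays, a change of -0.01 ± 0.040. TRIM69, a microtubule-binding member with antiviral activity, was at 3.65, 3.71 and 3.76 against 3.72, 3.66 and 3.67, a change of -0.02 ± 0.043, with 1 Tag control above its control mean. Scaled to the hybridization controls they were at -0.29 and -0.30, as the whole table moved by about that amount.

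Since 8 members of this list rose, the sequence before their start sites was searched for the interferon-stimulated response element, which IRF factors bind. Its letters, GAAA, any 2 bases and GAAA again, were sought on both strands in the 250 bases before each annotated start of RefSeq (GRCh38.p14). Of all 35116 promoters 3.02% held them, and by gene 3.71% of 27305. Promoters were found for 46 of the 60 members, of which 7 held a match. These were 3 of the 7 risers with a promoter (TRIM14, TRIM5 and TRIM34), 0 of the 5 fallers with one, and 4 of the 34 others (TRIM26, TRIM69, TRIM44 and TRIM2). Counted back from the start, the first base of the match lay at -26 in TRIM14, at -27 in TRIM5 and at -90 in TRIM34, in 1 of its 2 promoters. The printed stretches set these 3 beside TRIM69 and TRIM26, which held a match and did not pass the test, beside TRIM21 and TRIM25, which rose without one, and beside TRIM6. Each runs 5′ to 3′ on the gene's strand, with the match in capitals. All are the 120 bases next to the start except that of TRIM26, which runs from -250 to -131. In the order printed they are chr9:98119223-98119342, minus strand, chr11:5685075-5685194, minus strand, chr11:5624881-5625000, plus strand, chr15:44736408-44736527, plus strand, chr6:30213537-30213656, minus strand, chr11:4393703-4393822, minus strand, chr17:56914050-56914169, minus strand and chr11:5596517-5596636, plus strand.
TRIM14: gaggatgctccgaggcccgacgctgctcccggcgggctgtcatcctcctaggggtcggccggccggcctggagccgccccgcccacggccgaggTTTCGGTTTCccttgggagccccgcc
TRIM5: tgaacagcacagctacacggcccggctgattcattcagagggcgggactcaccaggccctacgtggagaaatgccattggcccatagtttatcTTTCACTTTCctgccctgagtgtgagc
TRIM34: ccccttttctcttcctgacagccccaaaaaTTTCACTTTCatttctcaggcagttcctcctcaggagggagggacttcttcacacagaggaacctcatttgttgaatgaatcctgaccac
TRIM69: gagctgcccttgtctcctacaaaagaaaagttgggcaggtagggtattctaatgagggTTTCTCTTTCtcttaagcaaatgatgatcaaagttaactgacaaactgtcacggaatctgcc
TRIM26: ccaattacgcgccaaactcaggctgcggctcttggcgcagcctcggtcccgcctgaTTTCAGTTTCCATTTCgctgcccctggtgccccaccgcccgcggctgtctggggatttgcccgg
TRIM21: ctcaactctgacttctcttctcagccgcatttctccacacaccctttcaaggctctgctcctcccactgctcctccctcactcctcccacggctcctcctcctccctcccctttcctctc
TRIM25: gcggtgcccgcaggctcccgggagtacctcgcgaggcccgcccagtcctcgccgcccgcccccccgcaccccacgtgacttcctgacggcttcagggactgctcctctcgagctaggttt
TRIM6: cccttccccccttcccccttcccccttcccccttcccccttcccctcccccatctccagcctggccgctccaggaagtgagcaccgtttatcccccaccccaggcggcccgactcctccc
In all 5 the match lay on the strand opposite to the gene, so the capitals read as its reverse complement. TRIM5 and TRIM34 shared the same 10 letters, and TRIM26 held 2 matches that overlap. A match here is a description of letters in this window and was not tested as a binding site.

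Of the 4 chromatin cofactors with PHD finger and bromodomain 1 fell and 3 did not pass the test. TRIM28, the corepressor (KAP1) that KRAB zinc finger proteins recruit to silence transposable elements, was at 9.42, 9.42 and 9.46 on control and 9.11, 9.14 and 9.27 on knockdown arrays. It fell by 0.26 ± 0.050 (SE, limma adjusted p = 0.016), a change of -16.5%, and it no longer passed once control replicate 2 or 3, or knockdown replicate 2, was removed (0.0553 to 0.0607). TRIM24, a nuclear receptor cofactor and p53 ligase, went from 7.36, 7.31 and 7.40 to 7.16, 7.12 and 7.26 without passing (-0.18 ± 0.049, limma adjusted p = 0.0558). In the fit over all probe sets its other 2 fell by 0.22 and 0.29 (limma adjusted p = 0.022 and 0.014). TRIM33, which ubiquitinates SMAD4, was at -0.11 ± 0.039 (limma adjusted p = 0.106) and TRIM66 at -0.08 ± 0.037 (limma adjusted p = 0.217). The groups did not overlap for any of the 4, with the knockdown arrays lower, as for 17.9% of all genes.

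Falls elsewhere in the family came from several classes. TRIM41, a SPRY ligase known to target protein kinase C, went from 6.90, 6.88 and 6.97 to 6.72, 6.64 and 6.63. This fall of 0.25 ± 0.044 (SE, limma adjusted p = 0.0108) was the 1 fall whose call held on leaving out each array in turn (adjusted p of 0.0168 to 0.0431). TRIM7, which binds the glycogen primer glycogenin, went from 7.16, 7.24 and 7.19 to 6.89, 7.0 and 7.07, a fall of 0.21 ± 0.053 (SE, limma adjusted p = 0.0419). TRIM68, an androgen receptor cofactor, fell by 0.20 ± 0.043 from control values of 6.59, 6.68 and 6.68 to 6.48, 6.47 and 6.41.

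TRIM32, an NHL-domain ligase mutated in a limb-girdle muscular dystrophy, went from 8.05, 8.07 and 8.02 to 7.91, 7.91 and 7.90, a fall of 0.14 ± 0.035 (SE, limma adjusted p = 0.0414). TRIM29, a RING-less protein of stratified epithelium, went from 4.49, 4.49 and 4.52 to 4.18, 4.24 and 4.40, with 1 Tag control above its control mean (-0.23 ± 0.059 SE, limma adjusted p = 0.0443). TRIM32 passed in 0 of the 6 omissions (0.0735 to 0.132). TRIM68 passed in that of control replicate 1 (0.0502 to 0.0919 in the others), and TRIM7 and TRIM29 in that of knockdown replicate 3 (0.0801 to 0.137 and 0.106 to 0.130 in the others). With the replicate number as a block, 2 members fell in place of 7, against 4.12% of all genes.

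By structural class, the rises were among SPRY members and among those with no C-terminal domain. Over all genes 5.77% rose and 6.83% fell, the shares to set beside each count below. Of 30 measured members of class C-IV, whose C-terminus is a SPRY domain, 7 rose (TRIM14, TRIM21, TRIM25, TRIM34, TRIM22, TRIM5 and TRIM38) and 4 fell (TRIM41, TRIM7, TRIM68 and TRIM6). Of 6 members of class C-V, with no such domain, TRIM56 and TRIM8 rose and 0 fell. Scaled to the hybridization controls, TRIM56 and TRIM8 turned to -0.06 and -0.09. In class C-VI 1 of 4 fell (TRIM28) and in class C-VII, with NHL repeats, 1 of 4 (TRIM32). In the 4 members of C-I, the 3 of C-II, the 1 of C-III and the 4 of C-VIII to C-XI 0 were called. Of the 4 measured members without a RING finger TRIM14 rose, TRIM29 fell, and TRIM44 and TRIM66 did not pass, at 0.11 and -0.08. All 7 SPRY risers were also on the interferon list. In number the SPRY class makes up much of the family, and no class was tested against another.

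Among the 44 members that did not pass, 8 had an unadjusted p under 0.05, 7 of them lower on the knockdown arrays and 1 higher. The same share over all genes was not counted, so no trend of the family is read from this split. The 7 were TRIM59, TRIM24, TRIM15, TRIM35, TRIM52, TRIM11 and TRIM33, at -0.26 to -0.11. TRIM59, anchored in the endoplasmic reticulum membrane, had the widest spread of them, with 5.65, 5.78 and 6.03 on control and 5.64, 5.55 and 5.48 on knockdown arrays (-0.26 ± 0.094 SE, limma adjusted p = 0.117). The 1 higher was TRIM44, known to stabilise other TRIM proteins, at 0.11 ± 0.045 (limma adjusted p = 0.164). Of well-measured members with little difference, TRIM37, a ligase of centrosome control, was at 0.04 ± 0.043 and TRIM27 at -0.04 ± 0.042. The 19 members that did not pass and lay in or below the Tag range changed by -0.11 to 0.07. They include the muscle ligases TRIM54 and TRIM55 and the germline member TRIM71.

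Probe sets of 1 gene often differed in size of change but not in the direction of their calls. The 60 genes had 160 probe sets, and 45 genes had more than 1. Fitted over all 44994 probe sets with 1 symbol, 21 TRIM probe sets rose (13.1%, against 4.76% of all probe sets) and 11 fell (6.88%, against 5.33%). They belonged to 10 genes with a rise and 8 with a fall, and 0 genes had calls in both directions.

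TRIM22 differed most between its probe sets. Beside the 1.36-fold rise of the probe set with the highest mean, the other 5 rose 2.08-fold to 2.93-fold (log2 1.06 to 1.55, limma adjusted p of 1.99e-05 to 0.00147 over all probe sets). At 1 of these the control arrays read 3.34, 3.71 and 3.6 and the knockdown arrays 5.26, 4.95 and 5.1. Control means of the 5 ran from 2.12 to 4.35, all inside or below the Tag range, so these ratios can include background. On the control arrays the 6 probe sets were 5.11 to 2.12, while on the knockdown arrays 5 of them read 4.68 to 5.58 and the sixth 3.34.

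TRIM14 probe sets gave rises of 1.01, 0.62 and 0.43, and the fourth, near background at 3.10 on control arrays, was at 0.11 (adjusted p = 0.248). The 3 that passed carry the suffix _s_at or _x_at, which marks probes that can bind related transcripts. The second TRIM25 probe set rose by 0.40 and the second of TRIM38 by 0.57. TRIM5 rose at both _x_at probe sets (0.39 and 0.34), while its 1 probe set without that suffix was at -0.04 ± 0.066 (limma adjusted p = 0.746). TRIM21 and TRIM34 had 1 probe set each, with the suffixes _s_at and _x_at. TRIM41 fell at 2 of 4 probe sets, by 0.25 and 0.26, both _x_at. The probe sets of TRIM7, TRIM68 and TRIM29 with lower means lay between -0.38 and -0.03 and did not pass. Over all probe sets, those with the highest mean for TRIM7 and TRIM29 did not pass either (limma adjusted p = 0.0513 and 0.0523).

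Some members passed the test only at a probe set with a lower signal. TRIM13, an endoplasmic reticulum ligase, was at -0.05 at the probe set with the highest mean and fell by 0.21 and 0.28 at 2 of the other 4. TRIM4 fell by 0.41 at 1 of 6, and TRIM17 rose by 0.19 at 1 of 2, where 2 Tag controls lay above it. TRIM32 fell by 0.27 at the lowest of its 3 probe sets (limma adjusted p = 0.0152), while the one with the highest mean did not pass in this fit (limma adjusted p = 0.0642).

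**Figure D3:**
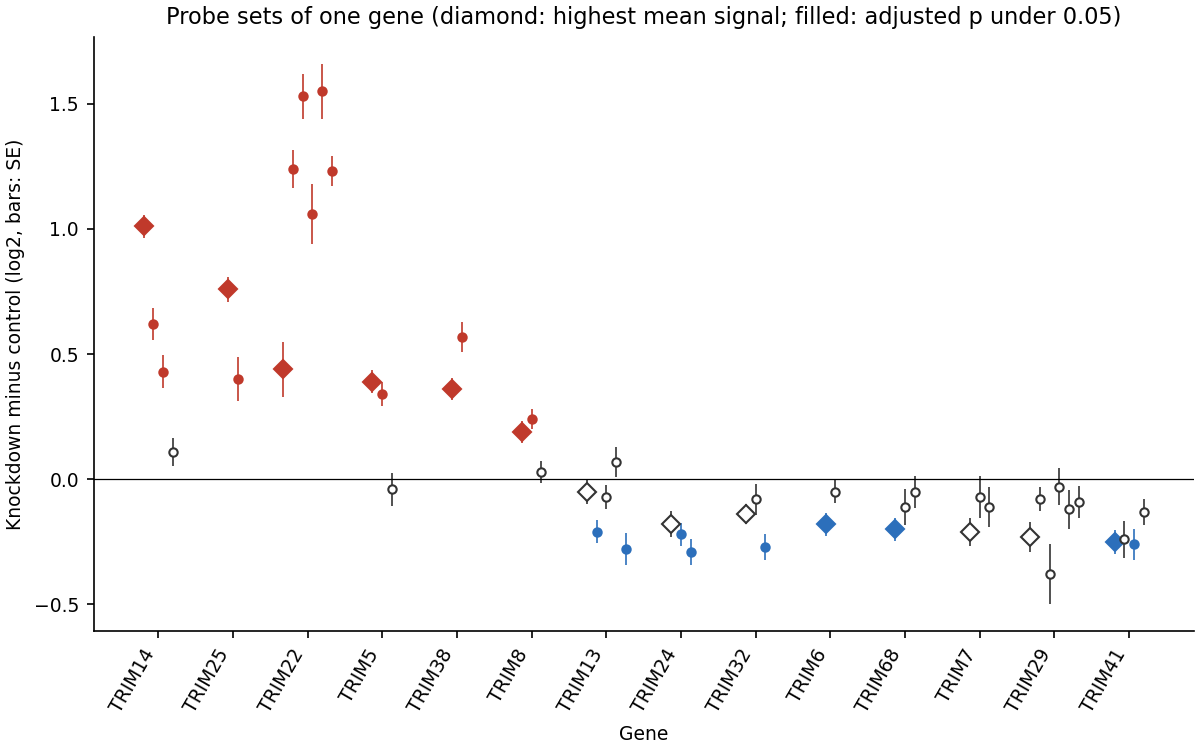
Change (knockdown minus control, log2, with its standard error) of every probe set of 14 TRIM genes. Diamonds mark the probe set with the highest mean signal, and filled symbols have an adjusted p under 0.05 over all probe sets. The 6 TRIM22 probe sets range from 0.44 to 1.55, and no gene has filled symbols on both sides of 0.

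The balance of rises and falls depended on scaling. After cyclic loess 9 members rose and 4 fell, against 7.14% and 5% of all genes. Scaled to the poly-A controls, which moved the median gene by -0.15, 7 rose and 29 fell, against 2.74% and 46.3% of all genes. Scaled to the hybridization controls, with a median of -0.29, 4 rose and 50 fell, against 1.28% and 83.2% of all genes. The 4 that still rose were TRIM14 (0.73), TRIM21 (0.49), TRIM25 (0.48) and TRIM34 (0.30). TRIM22 (0.16), TRIM5 (0.11) and TRIM38 (0.08) kept their direction without passing. The falls grew, to -0.54 for TRIM28 and -0.53 for TRIM41.

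**Figure D4:**
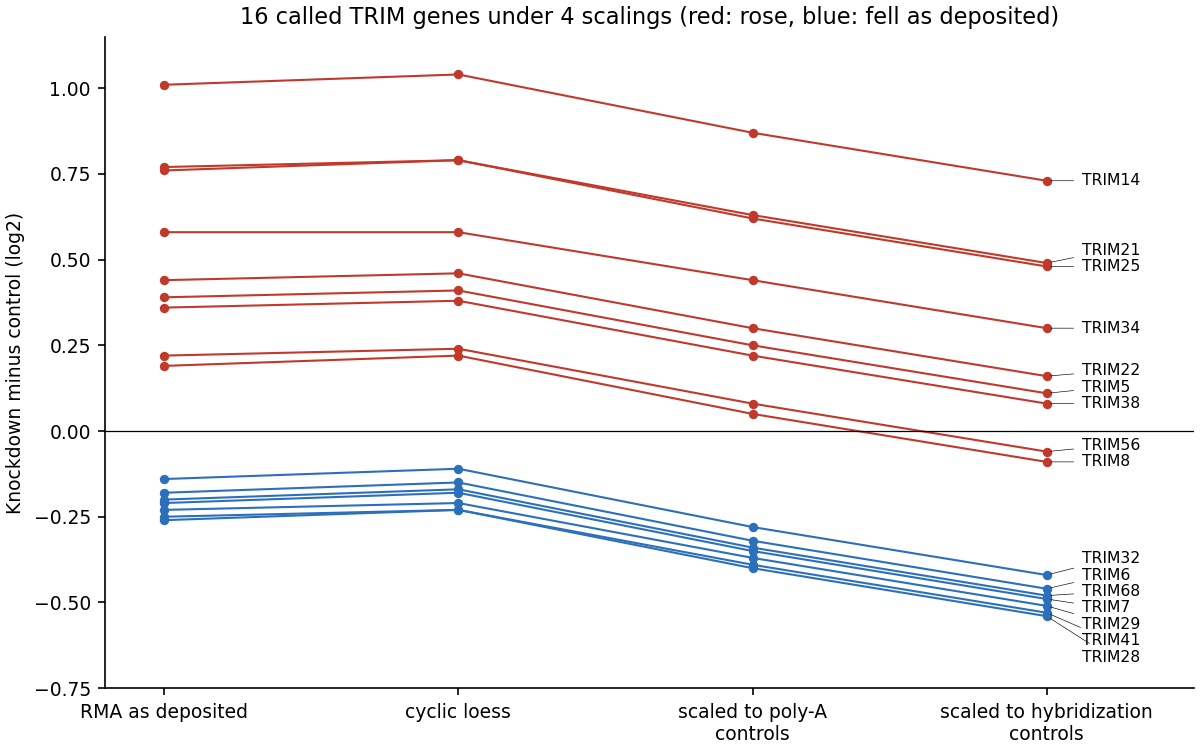
Change of the 16 called TRIM genes (knockdown minus control, log2) with the values as deposited, after cyclic loess, and scaled to the poly-A or hybridization controls. TRIM14 stays highest in all 4 (0.73 under the last), and TRIM56 and TRIM8 cross 0 under the last scaling (-0.06 and -0.09).

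Partners of TRIM25 moved unevenly. Of 8 genes around RIG-I, ZAP and the modifier ISG15, 3 rose, 1 fell and 4 did not pass (5.77% of all genes rose and 6.83% fell). The sensor RIGI went from 5.27 ± 0.14 to 7.90 ± 0.095 (SD, n = 3 each), a rise of 6.19-fold, ISG15 rose 10.7-fold, and its E2 enzyme UBE2L6 rose 1.84-fold (log2 0.88 ± 0.040 SE, limma adjusted p = 1.82e-05). KHNYN, the nuclease that works with ZAP, fell by 0.18 (limma adjusted p = 0.0334). ZAP itself (ZC3HAV1) was at -0.01, the RIG-I ligase RNF135 at -0.02, the deubiquitinase USP15 at -0.05 and MAVS at -0.12, none of which passed. Of the 7 measured E2 enzymes that serve TRIM RING fingers 0 rose and 1 fell, UBE2E3 (log2 -0.21, limma adjusted p = 0.0146), where 12.6% of all genes were called.

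Among 8 genes tied to the TRIM28 corepressor 1 rose and 2 fell, against 5.77% and 6.83% of all genes. The heterochromatin proteins CBX5 and CBX1 fell by 0.57 ± 0.071 and 0.16 ± 0.036 (SE, limma adjusted p = 0.00268 and 0.0273), while the remaining one, CBX3, was at -0.12 without passing. CBX5 fell at 5 of its 7 probe sets, and the other 2 were at -0.15 and -0.09. MORC3, a chromatin ATPase of PML bodies, rose by 0.29 (limma adjusted p = 0.0117) and by 0.60 at its second probe set. The methyltransferase SETDB1 was at 0.00. Of 5 measured genes on the SMAD4 side of TRIM33 and TRIM24, SMAD3 rose by 0.24, SMAD7 fell by 0.22 and 3 did not pass, where 12.6% of all genes were called.

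Of 8 TRIM proteins that carry other symbols 0 were called at the probe set with the highest mean, where 12.6% of all genes were called. The largest changes were 0.15 for TRIML2 and 0.14 for MID2, neither past the threshold. PML, the scaffold of nuclear bodies and itself interferon-induced, was at 0.02 ± 0.046 there. Yet 6 of its 10 probe sets rose, by 0.22 to 0.64, and 0 fell. At 1 of them the control arrays read 5.82, 5.79 and 5.84 and the knockdown arrays 6.43, 6.28 and 6.35 (limma adjusted p = 0.000634 over all probe sets). The probe set with the highest mean was thus among the 4 that did not pass. MID1 fell at 1 of its 5 probe sets (-0.17, limma adjusted p = 0.0469 over all probe sets), and the 5 lay between -0.17 and -0.10.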

How the data were processed

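Expression was measured on 6 one-colour arrays, 3 per group. Log2 values of 49372 probe sets were deposited by the authors, made with RMA per the submitters' processing notes; its software and version are not stated in the labels. RMA equalises the arrays, so a shift common to most transcripts is lost, and low signals are compressed. Names came from the platform annotation, updated by gene identifier: 44994 had 1 symbol, 1832 several and 2546 none. The highest mean over 6 arrays chose 1 probe set per gene. TRIM16, TRIM23, TRIM39, TRIM43, TRIM49, TRIM73 and TRIM74 had no probe set to themselves and are not among the members. Probe sets that list several symbols are described under other observations, and none of these lists TRIM23.

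The test was the moderated one of limma 3.58.1 (R 4.3.3; lmFit and eBayes, 2-sided, no covariate), with p-values adjusted by Benjamini-Hochberg over 18132 genes. The fit was tested on simulated data. Errors are SE for changes and SD for means. Members called, interferon-list and class C-VI members, called list members, the highest and lowest signals and genes with opposed probe sets were named by rule. TRIM13, TRIM4, TRIM17, TRIM59, TRIM27, TRIM54, TRIM71 and the other members with a low unadjusted p were picked with their values in view. So were the probe sets of PML, MID1, CBX5 and MORC3 and the uncalled partners. Members and lists were chosen with earlier results of these data known. Deviations of same-numbered arrays from their group means correlated little (r of 0.092, 0.058 and -0.010). This cannot exclude a shared batch or culture, and no label says whether the numbers pair samples. Arrays of 1 group correlated at 0.9986 to 0.9989; the number of arrays limits the precision. A second promoter motif was also searched; its result is not reported here. Figures used matplotlib 3.10.9.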

Additional observations from a re-analysis of the deposited data

How the results depend on the processing

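The count of 16 called members (9 rose, 7 fell) became 54 when scaled to the hybridization controls (4 and 50), 36 with the poly-A controls (7 and 29) and 7 without variance moderation (5 and 2). Without moderation 3.37% of all genes rose and 3.88% fell. Without _s_at and _x_at probe sets 5 of 52 rose, against 5.29% of all genes. TRIM14 was then at 0.11 and did not pass (limma adjusted p = 0.243). Falls numbered 4 of 60 after cyclic loess (5% of all genes) and 2 of 60 with the replicate block (4.12%). Above the median signal 13 of 32 fell, against 21.1% of all such genes. When adjusted over all probe sets, an alternative chosen after seeing the data, 4 of 60 fell (5.53% of all genes). Leaving out 1 array gave 7 to 13 calls, 6 to 8 rises and 1 to 5 falls. In those fits 3.49% to 4.6% of all genes rose and 2.6% to 4.37% fell. Specifically, 9 calls remained without control replicate 1, 7 without control replicate 2, 7 without control replicate 3, 10 without knockdown replicate 1 and 7 without knockdown replicate 2. Under all 6 omissions TRIM14, TRIM21, TRIM25, TRIM34, TRIM5, TRIM38 and TRIM41 stayed called. Averaged probe sets and array weights left 16 calls, of which 13 and 16 were shared.

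Directions reversed for TRIM26, to 0.01 after cyclic loess and without control replicate 2 or knockdown replicate 2 (-0.03 to 0.01 over the 6 omissions), for TRIM5 without _s_at and _x_at probe sets (-0.04), and for TRIM56 (-0.06) and TRIM8 (-0.09) when scaled to the hybridization controls. The cause was not tested. The block lost TRIM29, TRIM32, TRIM6, TRIM68 and TRIM7 and kept the other 11. Whether same-numbered arrays are paired cannot be told from the labels. Signals at or below the highest Tag control limit 21 members, among them TRIM34, TRIM29 and TRIM69.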

Other observations

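Probe sets annotated to several genes were kept out of the gene-level values, and 15 of them list a TRIM symbol among others. Fitted over all probe sets of the table apart from controls, 2 of the 15 rose, 1.61-fold and 1.62-fold (log2 0.69 ± 0.051 and 0.70 ± 0.060 SE, limma adjusted p = 0.00019 and 0.000398), and 0 fell. The other 13 changed by -0.23 to 0.07 and did not pass. The 2 that rose had control means of 6.44 and 5.09, above all Tag controls. Both of these list TRIM34 and the readthrough of TRIM6 and TRIM34, so their rise cannot be given to 1 annotated gene.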
